A study of Mus musculus with 8 samples.

Results

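The measurements described here are those of 10 mouse genes of the LIF and Stat3 pathway, namely *Lif*, *Lifr*, *Il6st*, *Jak1*, *Stat3*, *Socs1*, *Socs2*, *Socs3*, *Pim1* and *Pim3*. They were chosen by name: every probe of the expression arrays that is not a control and carries one of these gene names was taken. All 10 genes were found, with 15 probes printed on 33 spots, of 36406 gene or transcript names, 55681 probes and 59305 spots that are not controls. The rule uses names alone, but it was written with earlier results of these data known. The cells were E14Tg2A.4, an established line of mouse embryonic stem (ES) cells, which grow without limit in culture and can form the tissues of the embryo. One condition was left untreated and the other received 1 µM all-trans retinoic acid (RA), the active form of vitamin A, for 3 days. With 4 biological replicates per condition, 8 Agilent SurePrint G3 arrays with 1 colour were compared. The study's methods state that RA was given in medium without leukemia inhibitory factor, and its results describe the untreated cells of the arrays as self-renewing. The study does not say outright that the untreated cells of these arrays were kept in that factor. If they were, adding RA and taking the factor away cannot be told apart in this comparison.

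LIF is a secreted cytokine that binds a receptor made of Lifr and the shared chain gp130, the product of *Il6st*. The Janus kinases bound to the receptor, among them Jak1, phosphorylate Stat3, which moves to the nucleus and switches on genes, and in mouse ES cells this keeps the cells undifferentiated. Among the known targets are *Socs3*, whose product shuts the receptor down again, and the Pim kinases, so that their transcripts are often read as a sign of pathway activity.

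The values below are log2 signals of a probe minus the 75th percentile of its array, so that a difference of 1 is 2-fold. A change is RA minus untreated. It was tested with limma, with p-values adjusted by the Benjamini-Hochberg method over all 55681 probes, and was called at an adjusted p under 0.05 together with more than 1.5-fold. Where a gene had several probes, the one with the highest mean over the 8 arrays stands for the gene. Of the spots of an array, 56.7% to 62.7% exceeded background by the scanner software's test (well above background) and none was saturated. Further, all 15 member probes were well above background on all 8 arrays. The arrays lay on 2 slides, each with 2 arrays of each condition.

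After RA, 5 of the 10 genes were lower (*Stat3*, *Socs2*, *Socs3*, *Pim1* and *Pim3*), 1 was higher (*Jak1*) and 4 were not called (*Lif*, *Lifr*, *Il6st* and *Socs1*). Over the whole array 34.6% of the probes were called, 12.9% higher and 21.6% lower. Among the 27515 probes that were well above background on all 8 arrays, as the members' probes were, 17.8% were higher and 27.7% lower. The share of members that fell lay above this background and the share that rose did not, and neither difference was tested. The members are counted here as genes by their brightest probe, and the background counts probes. The 6 called genes were also those whose 4 untreated and 4 RA values did not overlap, which held for 37.7% of all probes. Counted by probe, 9 of the 15 were called lower and 1 higher. The median change of the 10 genes was -0.64, beside -0.28 over all probes and -0.23 over those 27515 probes. These medians depend on the scaling. After quantile normalization the median of all probes was -0.0026 and that of the 10 genes -0.53, and the calls over the array changed from 7196 higher and 12044 lower to 8152 higher and 8704 lower. The calls of the 10 genes were the same under both scalings.

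**Figure D1:**
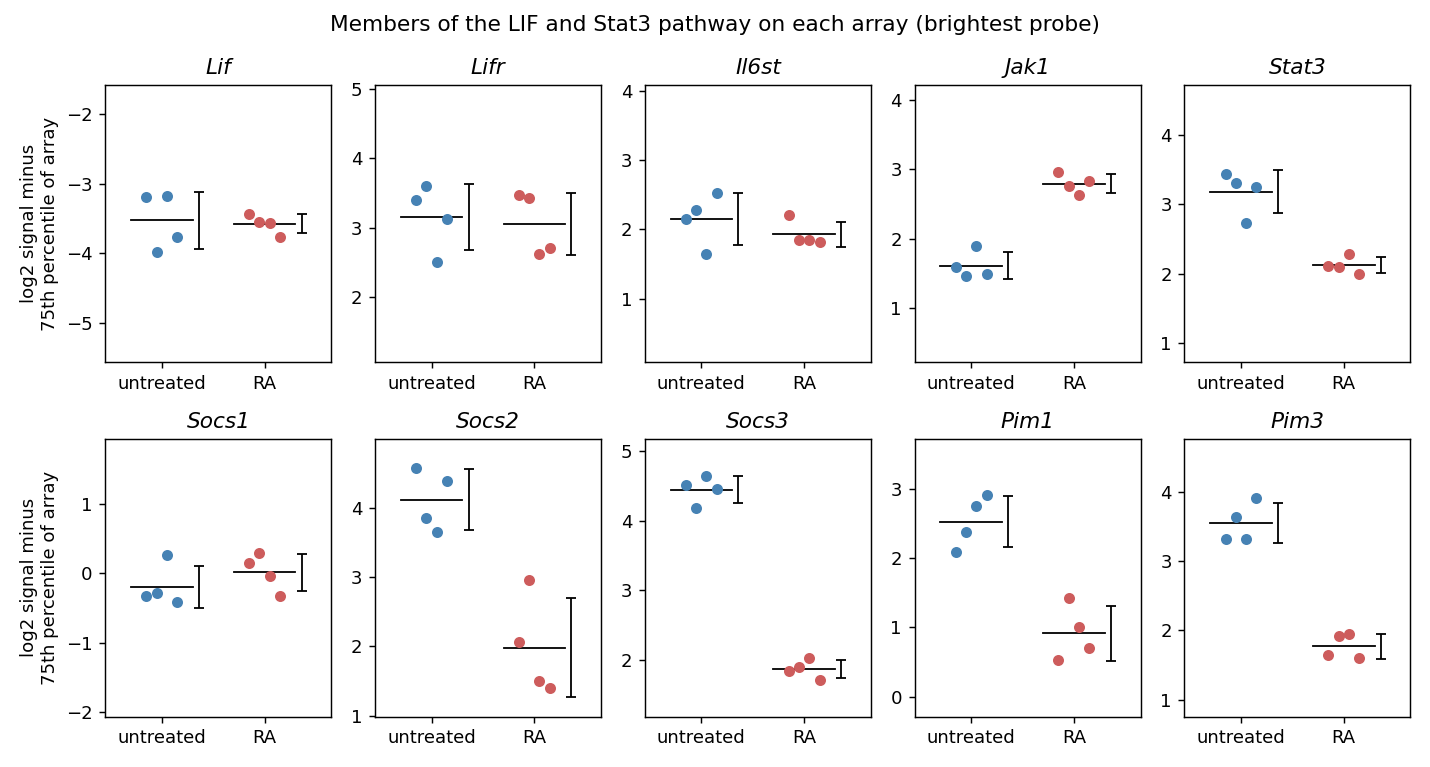
Log2 signal minus the 75th percentile of the array (vertical axis) for the 10 genes on the 4 untreated (blue) and 4 RA (red) arrays, in order of replicate number from left to right, with the mean as a line and the SD as a bar beside it. Each panel spans the same number of log2 units around its own values, and the conditions are apart for *Jak1*, *Stat3*, *Socs2*, *Socs3*, *Pim1* and *Pim3* and overlap for the other genes.

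*Lif*, the gene of the cytokine itself, was a dim probe in both conditions. It read -3.19, -3.98, -3.17 and -3.76 on untreated arrays 1 to 4 and -3.43, -3.55, -3.56 and -3.76 on RA arrays 1 to 4. The RA values lay within the range of the untreated ones. The change was -0.050 (SE 0.21, adjusted p = 0.861 by limma), with a 95% interval from -0.54 to 0.44. The array measures the transcript that the cells make, not the cytokine in the medium.

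The 3 probes of *Lifr*, the chain that gives the receptor its specificity, did not give the same result. The brightest probe (RefSeq transcript NM_013584 in the array design, mm9 chr15:7147319-7147378, plus strand) read 3.40, 3.61, 2.51 and 3.12 on the untreated arrays and 3.47, 3.42, 2.63 and 2.71 after RA. Its conditions overlapped, and its change was -0.10 (SE 0.30, adjusted p = 0.790 by limma). The probe of the other transcript (NM_001113386, mm9 chr15:7135072-7135131) read 0.78, 0.18, 1.59 and 1.10 on the untreated arrays and 0.15, 0.0017, -0.25 and -0.78 after RA. All 4 RA values were below the lowest untreated value, though untreated replicate 2 lay close to RA replicate 1. This probe was called lower, by 2.20-fold (change -1.14, SE 0.32, adjusted p = 0.0215 by limma). The call was lost without untreated replicate 4 (change -1.07, adjusted p = 0.0547 by limma) and without RA replicate 4 (-0.95, adjusted p = 0.0568), and on either slide alone (-1.51 on slide 1 and -0.77 on slide 2). The third probe, again of NM_013584 (mm9 chr15:7141150-7141209), was not called, with a change of 0.34 (SE 0.30, adjusted p = 0.365 by limma) and overlapping conditions. With the mean of the 3 probes in place of the brightest, *Lifr* changed by -0.30 and was not called. The gene is known to produce a membrane-bound and a secreted form of the receptor, and the files do not say which form each probe measures. The first 30 bases of each of the 3 probes are shown because the probes separate these readings. None of the letters is in capitals, as no motif was searched in them.
Lifr, brightest probe: catagatgatgtaaatagcctaagacactg
Lifr, probe called lower: taaaaacttggaaatgtatccaggcctaac
Lifr, remaining probe: agaacaaaccaaatgactaaccaggtcacc

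*Il6st*, the gene of gp130, read 2.15, 2.28, 1.64 and 2.53 on the untreated arrays and 2.20, 1.84, 1.85 and 1.82 after RA. The RA values lay inside the untreated range, which untreated replicates 3 and 4 set. Its change was -0.22 (SE 0.21, adjusted p = 0.399 by limma), with a 95% interval from -0.70 to 0.25. The changes of both receptor chains, compared within each array by an exact permutation test over the 70 ways to split the 8 arrays, differed by 0.12 (exact p = 0.629, two-sided). This was one of 5 such pairs, and adjusted over the 5 its p was 0.629.

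*Jak1*, the Janus kinase that gp130 needs most, was the single member that rose. It read 1.59, 1.46, 1.89 and 1.49 on the untreated arrays and 2.96, 2.75, 2.63 and 2.83 after RA. The lowest RA value was above the highest untreated value. The rise was 2.27-fold (change 1.18, SE 0.15, adjusted p = 0.000365 by limma). It was 1.16 on slide 1 and 1.21 on slide 2, each with 2 arrays per condition.

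*Stat3*, the transcription factor at the end of the pathway, was lower after RA with both of its probes. The bright probe, printed on 10 spots of each array, read 3.44, 3.30, 2.73 and 3.25 on the untreated arrays and 2.11, 2.10, 2.29 and 2.00 after RA. No RA array reached the lowest untreated value, which was that of replicate 3. The fall was 2.08-fold (change -1.06, SE 0.18, adjusted p = 0.00173 by limma). The other probe, well above background but dim, read -2.58, -1.95, -2.36 and -2.14 on the untreated arrays and -3.01, -2.86, -3.12 and -3.44 after RA. Its conditions did not overlap either, and it changed by -0.85 (SE 0.19, adjusted p = 0.00749 by limma). With the authors' values its change was -0.47, under 1.5-fold, and it was not called. The SD between the 10 spots of one array was 0.026 to 0.087, against 0.31 between the untreated arrays and 0.12 between the RA arrays. The spread between arrays was thus larger than that between spots of the same probe. Within slides the change of the bright probe was -1.03 and -1.08, and on slide 1 alone, with 2 arrays per condition, it was not called (adjusted p = 0.102 by limma). The bright probe lies at mm9 chr11:100749598-100749657 on the minus strand, and its first 30 bases are shown because it stands for the gene.
Stat3, first 30 bases of the bright probe: cactctgtgagctgataccccaggctggga

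**Figure D2:**
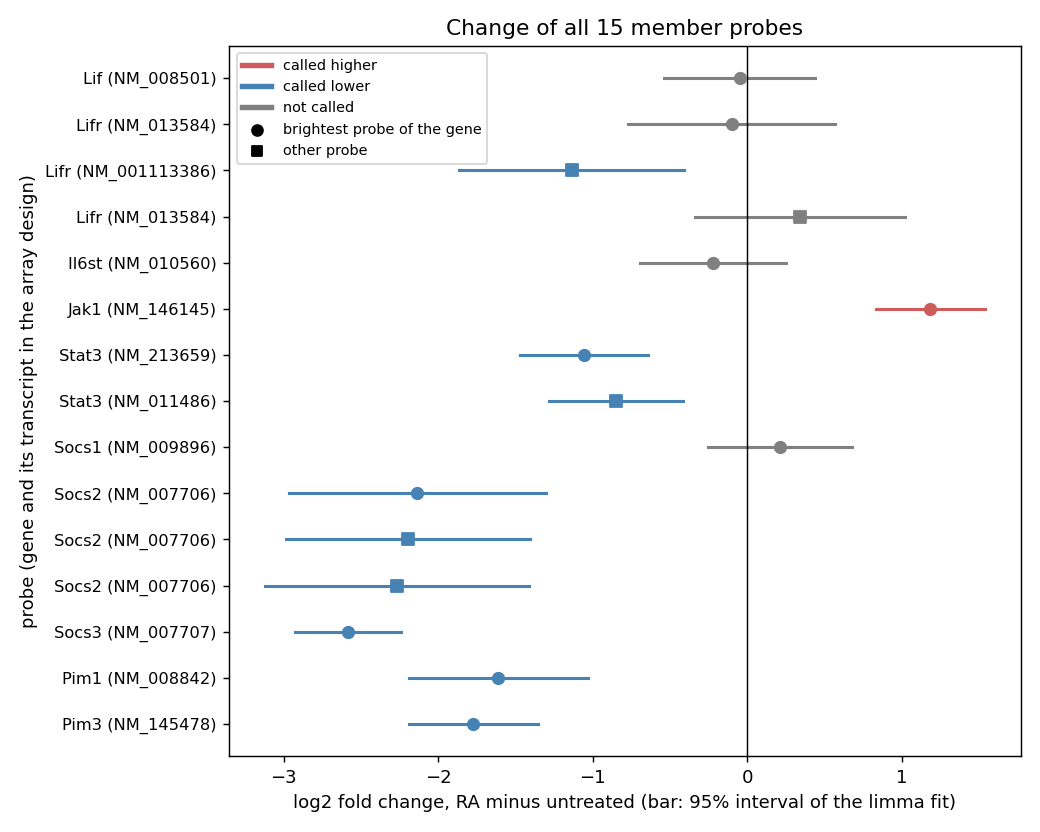
Change after RA on the log2 scale (horizontal axis) for the 15 probes of the 10 genes (vertical axis), with the 95% interval of the limma fit as a bar; circles are the brightest probe of a gene, squares its other probes. The 3 probes of *Socs2* and both probes of *Stat3* lie below 0, while the 3 probes of *Lifr* run from -1.14 to 0.34.

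The 3 suppressors of cytokine signalling among the members bind activated receptors or Janus kinases and end the signal, and 2 of the 3 were called lower. *Socs3*, the one known to bind gp130 directly, showed the largest fall of the 10 genes. It read 4.51, 4.19, 4.64 and 4.46 on the untreated arrays and 1.84, 1.89, 2.02 and 1.71 after RA. The gap between the conditions was many times the spread within either (SD 0.19 untreated and 0.13 after RA, n = 4 each). The fall was 6.00-fold (change -2.59, SE 0.15, adjusted p = 6.42e-06 by limma), with a 95% interval from -2.93 to -2.24.

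*Socs2*, best known for restraining growth hormone signalling, was lower with all 3 of its probes. Its brightest probe, on 10 spots of each array, read 4.57, 3.86, 3.64 and 4.38 on the untreated arrays and 2.06, 2.95, 1.50 and 1.40 after RA. RA replicate 2 was the highest of the treated arrays but below all untreated ones. The fall was 4.40-fold (change -2.14, SE 0.37, adjusted p = 0.00171 by limma), and the other probes changed by -2.20 and -2.27. The SD between spots of one array was 0.032 to 0.10, against 0.44 between the untreated arrays and 0.71 between the RA arrays. Without RA replicate 2 the change was -2.46. On slide 2 alone, which held that array, it was -1.89 and was not called (adjusted p = 0.0588 by limma), and on slide 1 it was -2.38. The innermost probe, at mm9 chr10:94875468-94875527 on the minus strand, is shown in full as the one farthest from the brightest probe.
Socs2, innermost probe: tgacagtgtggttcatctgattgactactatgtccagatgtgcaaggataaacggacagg

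*Socs1*, which inhibits Janus kinases directly, read -0.32, -0.29, 0.26 and -0.42 on the untreated arrays and 0.15, 0.29, -0.038 and -0.33 after RA. The conditions overlapped, and the change of 0.21 was not called (SE 0.20, adjusted p = 0.412 by limma, 95% interval from -0.25 to 0.68). The changes of *Socs1* and *Socs3* differed by 2.80 and those of *Socs1* and *Socs2* by 2.35. For both pairs the exact permutation test gave p = 0.0286, the smallest that 70 regroupings allow, and 0.0714 after adjustment over the 5 pairs. Swapping conditions only within replicate numbers, which were taken to pair the cultures, leaves 16 arrangements, and the exact p for both was then 0.125, the smallest they allow. The falls of *Socs2* and *Socs3* differed by 0.45 (exact p = 0.371, 0.607 adjusted).

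**Figure D3:**
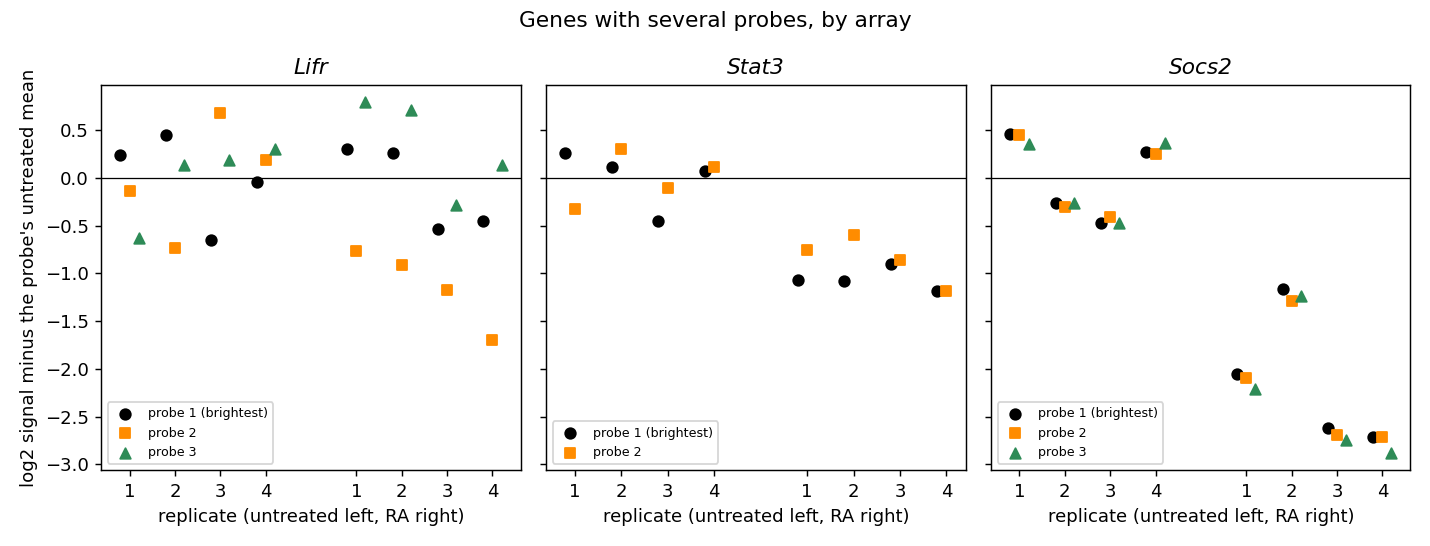
Log2 signal minus the probe's own mean over the untreated arrays (vertical axis) on untreated arrays 1 to 4 and RA arrays 1 to 4 (horizontal axis) for the probes of *Lifr*, *Stat3* and *Socs2*. The probes of *Socs2* lie close together on each array and RA replicate 2 is the highest treated array with each of the 3, while the *Lifr* probes are apart on the RA arrays.

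Both Pim kinases among the members, serine and threonine kinases that favour survival and growth, were lower after RA. *Pim1* read 2.08, 2.37, 2.76 and 2.90 on the untreated arrays and 0.52, 1.43, 1.00 and 0.70 after RA, without overlap. It fell 3.06-fold (change -1.61, SE 0.25, adjusted p = 0.00108 by limma). *Pim3* read 3.32, 3.64, 3.31 and 3.91 on the untreated arrays and 1.64, 1.91, 1.94 and 1.60 after RA, again without overlap. It fell 3.42-fold (change -1.77, SE 0.18, adjusted p = 0.000101 by limma). The falls of both genes differed by 0.16, which was not beyond the spread between arrays (exact p = 0.486 by permutation, 0.607 adjusted over the 5 pairs). The *Pim1* probe, at mm9 chr17:29630740-29630799, is shown because 1 probe carries the reading for that gene.
Pim1 probe: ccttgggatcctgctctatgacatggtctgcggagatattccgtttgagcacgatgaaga

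The promoters of the members were searched for TTCNNNGAA, the palindrome that STAT factors bind, in the 300 bases around the transcript start that RefSeq gives on GRCm38.p6 (250 bases before and 50 after). As a palindrome it reads the same on both strands. The table held 11 promoters of 9 members and none for *Socs2*. The motif was present in 1 of the 11 (9.09%) and in 2726 of all 32851 promoters (8.30%). The one promoter was that of *Socs3*, at chr11:117969317-117969616 on the minus strand of GRCm38.p6, with the motif beginning at position -154 from the start. It is shown with its surroundings, with the motif in capitals.
Socs3 promoter window: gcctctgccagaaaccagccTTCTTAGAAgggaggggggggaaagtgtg
The match is one of letters and no binding was measured here. Its absence from the other windows says only that these letters are not in them.

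Of 61 further genes of the pathway, grouped by role, 14 were called higher, 22 lower and 25 were not called, with a median change of -0.16. Of the 61 genes, 2 were not well above background on any array. The shares called higher and lower were 12.9% and 21.6% among all probes, and 17.8% and 27.7% among the probes well above background on each of the 8 arrays.

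**Figure D4:**
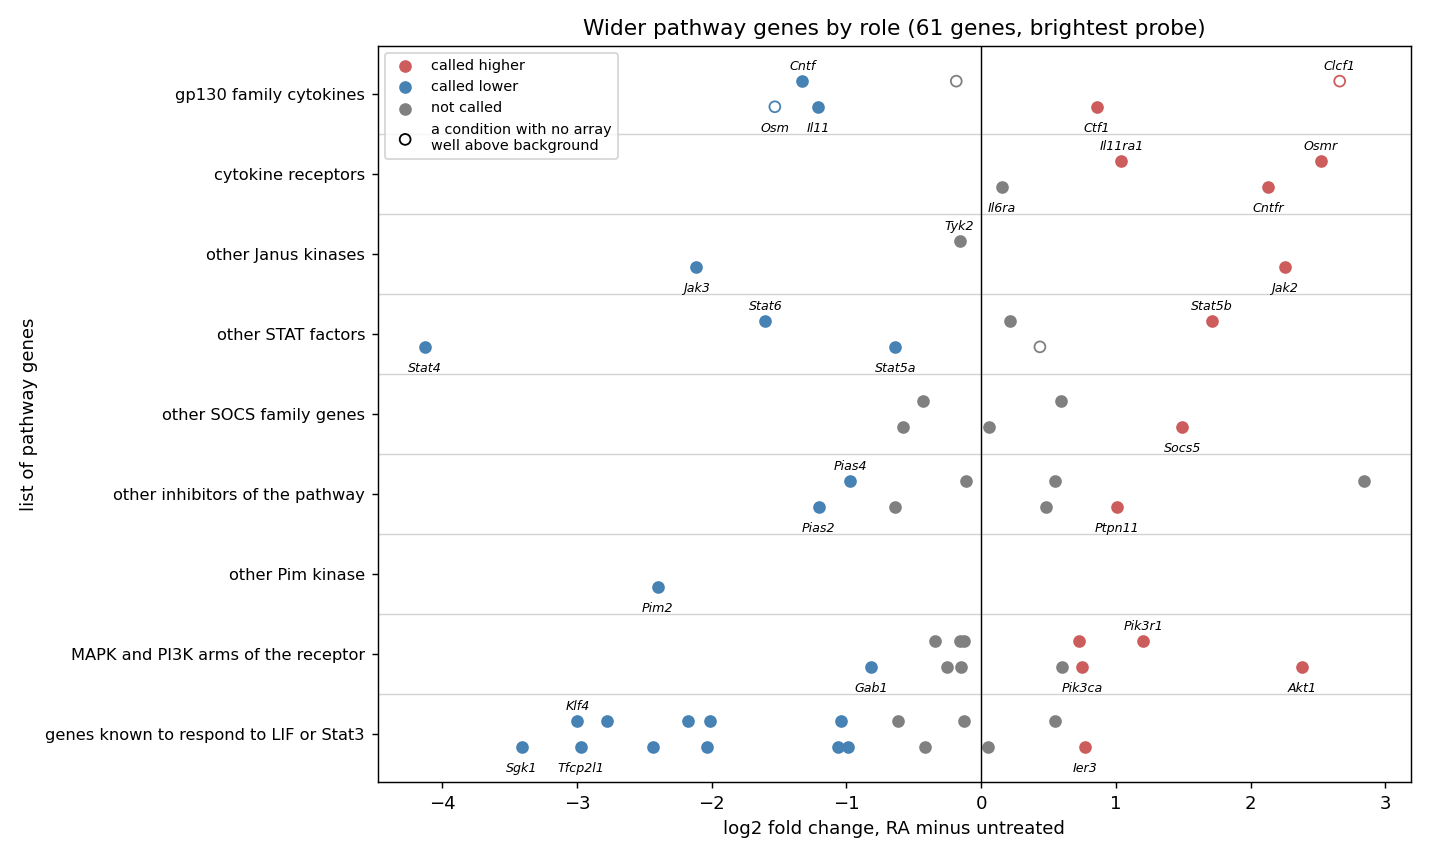
Change after RA on the log2 scale (horizontal axis) of the 61 further genes in 9 lists by role (vertical axis), coloured by the call; open circles mark genes for which a condition has no array well above background. Of the 17 genes known to respond to LIF or Stat3, 11 lie on the lower side as called, and of the 4 receptor genes 3 on the higher side. Among all probes well above background on all 8 arrays, 27.7% were called lower and 17.8% higher.

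Among the 6 other cytokines that signal through gp130, 2 were higher and 3 lower. *Clcf1*, which acts through the Cntf receptor, was not well above background on any untreated array and was on all 4 RA arrays. Its rise is given as a bound, 4.43-fold (adjusted p = 3.45e-05 by limma). After normexp background correction, which adds an offset that compresses dim signals, its change was 0.90. *Ctf1*, cardiotrophin, rose by 0.86. *Osm*, oncostatin M, was in turn well above background on the 4 untreated arrays and on no RA array. The bound on its fall was 2.62-fold (adjusted p = 0.000330 by limma). With the authors' values its change was -0.32, under 1.5-fold, and it was not called. A bound sets the brighter group against the lowest signal that counts as well above background on each array of the dimmer group, or the probe's own signal where that is higher. It belongs to the main processing only, and the authors' values gave smaller changes (1.11 for *Clcf1*). *Cntf* changed by -1.33 and *Il11* by -1.21, and *Il6* was not well above background on any array.

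Of the 4 receptor genes for these cytokines, 3 rose. *Osmr*, the oncostatin M receptor, read -4.66, -5.16, -5.49 and -4.87 on the untreated arrays, of which 3 were well above background, and -2.14, -2.78, -2.66 and -2.53 after RA. That is a change of 2.52 (adjusted p = 4.39e-05 by limma), which was 1.20 in the setting that lowered it most. *Cntfr* changed by 2.13 and *Il11ra1* by 1.04, and both were apart between the conditions. *Il6ra*, the receptor for interleukin 6, was not called (change 0.15, adjusted p = 0.783 by limma).

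The Janus kinases were split. *Jak2* rose from between -0.71 and -0.41 on the untreated arrays to between 1.48 and 1.94 after RA, a change of 2.25 (adjusted p = 1.20e-05 by limma), so that it moved the same way as *Jak1*. *Jak3*, which pairs with the receptors of lymphocyte cytokines, changed by -2.11, and *Tyk2* was not called (change -0.16).

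Among the other STAT genes, *Stat4*, which in lymphocytes answers interleukin 12, showed the largest change of the 61. It read 1.00, 0.92, 0.48 and 0.92 on the untreated arrays and -3.75, -3.20, -2.86 and -3.39 after RA. The fall was 17.5-fold (change -4.13, SE 0.22, adjusted p = 4.26e-06 by limma). The change was -3.24 with the authors' values. *Stat6*, which acts downstream of interleukin 4, changed by -1.60, and its other probe well above background by -1.18, while *Stat5b*, an effector of growth hormone, rose by 1.71. *Stat5a*, its close relative, changed by -0.64, just past the threshold of 1.5-fold, and was not called under 9 of the 20 alternative settings. *Stat2* was not called (change 0.21, adjusted p = 0.395 by limma).

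Of the 5 other SOCS genes, *Socs5* rose by 1.49 (adjusted p = 3.88e-05 by limma) and 4 were not called. Of 8 other inhibitors, *Ptpn11*, the phosphatase Shp2 that gp130 recruits, rose by 1.01, and *Pias2* and *Pias4*, which attach SUMO to target proteins, changed by -1.20 and -0.97. *Pim2*, the remaining Pim kinase, changed by -2.40 (adjusted p = 0.000172 by limma). Its RA replicate 2 was at -1.45 and the other RA arrays between -2.23 and -2.11. In the MAPK and PI3K arms, through which gp130 also signals, 4 of 11 genes rose, led by the kinase gene *Akt1* (change 2.38), and the PI3K subunit genes *Pik3r1* (1.20) and *Pik3ca* (0.75). The adaptor gene *Gab1* changed by -0.82, and 6 were not called.

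Of 17 genes that are known from other work to respond to LIF or to Stat3 in ES cells or elsewhere, 11 were lower, 1 was higher and 5 were not called, with a median change of -1.06. Among all probes well above background on all 8 arrays, 27.7% were lower and 17.8% higher. The difference from these shares was not tested, and the list was written with earlier results of these data known. The largest falls were those of *Sgk1*, a kinase of ion transport and survival, *Klf4*, and *Tfcp2l1* (named *Tcfcp2l1* on the array). The transcription factors *Klf4* and *Tfcp2l1* are known to carry the LIF signal in ES cells. *Sgk1* read 5.10, 5.24, 4.81 and 5.01 on the untreated arrays and 1.81, 2.30, 1.39 and 1.04 after RA, a 10.6-fold fall (adjusted p = 2.40e-05 by limma). *Klf4* changed by -3.00 and *Tfcp2l1* by -2.97, each without overlap. *Ier3*, an early response gene, was the one called higher by its brightest probe (change 0.77). *Bcl2l1*, which protects from cell death, was not called with its brightest probe (change 0.55, under 1.5-fold, adjusted p = 0.0155 by limma), while its other detected probe was called higher (change 1.28, adjusted p = 0.00725 by limma). It is named after its values were seen.

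Markers of cell type changed as well. All 6 ES cell markers, among them *Pou5f1* and *Nanog*, were called lower, and their summed level, in multiples of the 75th percentile of an array, was 303 to 428 on the untreated arrays and 6.47 to 32.5 after RA. RA replicate 2 held the highest sum of the treated arrays (32.5, beside 13.2, 11.4 and 6.47 on replicates 1, 3 and 4), and it was also the highest treated array for 2 of the 5 members that fell (*Socs2* and *Pim1*). For the other 3 (*Stat3*, *Socs3* and *Pim3*) that was replicate 3, whose sum was 11.4. Of the 22 further pathway genes that fell, 12 were highest on RA replicate 2, 7 on replicate 3, 2 on replicate 4 and 1 on replicate 1. The same tally was not made over all probes called lower, so these counts have no background beside them. All 6 markers of primitive and visceral endoderm were higher (sum 1.26 to 2.19 untreated, 22.2 to 37.8 after RA), as were 5 of 6 markers of fibroblasts and mesenchyme (1.10 to 1.99, then 20.5 to 38.3) and all 4 of smooth muscle (2.17 to 3.91, then 255 to 468). Of 5 neural markers 1 was higher (*Nes*, change 2.10) and 1 lower (*Tubb3*, change -2.22). Their sum was 6.09 to 9.67 untreated and 10.4 to 11.8 after RA, so it does not show the fall of *Tubb3*. Of 4 blood markers 1 was lower (0.908 to 1.59, then 0.344 to 0.385), with *Ptprc* and *Hbb-b1* not well above background on any array. All 4 RA response genes were higher (2.04 to 2.85, then 12.1 to 57.2). In RNA from whole cultures, fewer cells of a type and less RNA per cell cannot be told apart, and the part of these marker changes in the results above was not tested.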

How the data were processed

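RNA from 4 untreated and 4 RA-treated cultures was labelled with Cy3 and measured on 1-colour arrays, and conditions and replicate numbers were taken from the sample labels. The authors deposited the output of Agilent Feature Extraction (version 10.7.3.1, probes placed on mm9), in which the processed intensity of a spot is corrected for background but not normalized between arrays, next to mean and background intensities and flags for outlying, saturated and well-above-background spots. A second deposited table gives log2 values for the same probes. Its normalization is not given in the sources used here, its columns share a median of 6.89, and it correlated at 0.9996 or more with the normexp values below, so it served as an alternative.

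In R (version 4.3.3), 3671 control spots and 124 to 145 outlier spots per array were left out, the 75th percentile of each array was subtracted from the log2 processed intensity, spots of a probe were averaged, and lmFit and eBayes of limma (version 3.58.1) were run without a filter on dim probes. The number of arrays, 4 per condition, limits the precision. Alternatives were quantile normalization, a percentile over the 27515 probes always well above background, normexp with an offset of 50 alone or with quantile normalization, the authors' values, a filter at 4 of 8 arrays, the mean of a gene's probes, a replicate block, the slide as a block or alone, a threshold of 2-fold, and leaving out each array. Same-numbered arrays deviated together from their condition means (r = 0.186, 0.189, 0.104 and 0.151 over those 27515 probes), so the replicate numbers, which come from the labels, were taken to pair the cultures. The highest r between arrays of different numbers was 0.142, for a pair on the same slide. Same-numbered arrays 1 and 2 also shared a slide and those numbered 3 and 4 did not, so pairing and slide were partly mixed. The adjusted p-values in the text come from the fit without the replicate numbers unless stated.

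Members and lists were chosen with earlier results of these data known. All members and all their probes are named. Of each list by role the text names called genes without overlap, at most 3 in each direction by size, and, in lists of at most 4 genes, those above background on all arrays and not called. Stat2, Il6 and Bcl2l1 were added after their values were seen, and some items are not reported here. Genes were matched by the names of the array design, which are older for some genes. The other probes of the 61 further genes that were well above background on all arrays numbered 21, of which 19 had the call of the brightest probe and 0 the opposite one. The steps were tested on simulated data. Promoters and transcripts come from RefSeq, and protein sequences were not used here.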

Additional observations from a re-analysis of the deposited data

Results flagged for a closer look

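Among 88 groups of 4 arrays (the member probes and the named genes of the pathway, in each condition), 4 held an array that stood far from the other 3, where about 4.4 would be flagged by chance. *Il6st* was at 2.20 on RA replicate 1 and between 1.82 and 1.85 on the other RA arrays. *Ier3* was at -1.36 on untreated replicate 2 and between -1.91 and -1.85 on the others. *Pim2* was at -1.45 on RA replicate 2 and between -2.23 and -2.11 on the others, and that array also held the highest summed ES cell markers of the RA arrays. *Stat4* was at 0.48 on untreated replicate 3 and between 0.92 and 1.00 on the others. Leaving out the array in question changed none of the calls of these 4 genes.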

How the results depend on the processing

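The calls of the 10 members, by their brightest probe, held under all alternatives except on a single slide, where each condition had 2 arrays: *Stat3* was not called on slide 1 alone (change -1.03, adjusted p = 0.102 by limma) and *Socs2* not on slide 2 alone (change -1.89, adjusted p = 0.0588 by limma). No change reversed among the called genes. Leaving out 1 array kept the number of members called at 1 higher and 5 lower, with changes of *Socs3* between -2.67 and -2.52, of *Stat3* between -1.21 and -0.97 and of *Jak1* between 1.13 and 1.28. With the replicate block the counts of members were again 1 and 5. The adjusted p by limma was then 0.0103 for *Stat3*, 0.00450 for *Socs2*, 0.000215 for *Socs3* and 0.0042 for *Jak1*. The block changed no call of a member or of the 29 named genes of the lists. The changes of *Lif* (-0.42 to 0.32), *Lifr* (-0.34 to 0.13), *Il6st* (-0.56 to 0.11) and *Socs1* (-0.057 to 0.48), by their brightest probe or the mean of their probes, took both signs and were not called in the 20 settings. Of the 19 settings run on the other probes of members, the *Lifr* probe called lower lost its call in 4 and the dim *Stat3* probe in 5, on either slide alone among them. The innermost *Socs2* probe lost its call in 1, on slide 2 alone (change -2.05, adjusted p = 0.0530 by limma).

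Counts over the array moved more. Probes called lower, 12044 as reported, numbered 6603 with normexp and quantile normalization, 6583 with the authors' values, 6348 on slide 1 and 5453 on slide 2. Probes called higher, 7196 as reported, numbered 4206 on slide 1 and 3964 on slide 2. Pathway genes called higher, 14 as reported, numbered 8 on slide 1 and 7 on slide 2, where fewer arrays entered the fit. For the 29 named genes of the lists, 545 of 580 alternative results had the reported call and 35 lost it, of which 9 were those of *Stat5a*. The dim genes *Osm* and *Clcf1* moved with the background correction: with normexp alone *Osm* changed by -0.56 and lost its call, and *Clcf1* changed by 0.90 and kept it. *Osm* changed by -0.32 with the authors' values, where the scaling differs too. *Stat6* changed by -0.77 with the mean of its probes, 1 of which was not well above background on any array. The exact p of both paralogue pairs with *Socs1* was 0.125 with the replicate block, 0.0556 with the slide as a block and 0.333 on either slide alone, the smallest each allows, so no pair could pass there. The 2-fold threshold does not apply to them, and the mean of all probes gives no count of probes. A gene dim on all arrays of a condition has only a bound there.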
